A study of Mus musculus with 18 samples.

Results

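Colon of mice that had drunk dextran sulfate sodium (DSS) and were then gavaged with the bacterial strain ZJ316-KO (KO, 4 libraries) was compared with colon of untreated mice (Control, 3 libraries). Genes were taken where at least 3 of these 7 libraries held at least 1 FPKM (a level scaled to gene length and to the size of the library), which left 12807 of the 18349 genes in the table, or 69.8%. At the edge of that rule, 84 genes lay within 0.05 FPKM above the limit and 75 within 0.05 FPKM below it.

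DSS is a polymer that injures the lining of the colon, and repair of such an injury involves secreted mucus, new matrix, blood vessels and immune cells. The lining itself is a sheet of absorptive colonocytes and mucus-making goblet cells over a stroma of fibroblasts, vessels and leukocytes, and whole colon also holds smooth muscle and enteric nerves. Many of these cells run a circadian clock, in which the CLOCK and ARNTL proteins switch on the Per, Cry and Nr1d genes and the output factors Dbp, Tef and Hlf, and the products of Cry and Nr1d genes act back on that pair.

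Total RNA of the whole colon was sequenced in 18 libraries of 5 groups from male C57BL/6 mice whose genotype is given as wild type, so that KO, WT and COM name bacteria and not mice. Control mice drank water, and no gavage is described for them. Mice of the other 4 groups drank 2.5% DSS for 7 days and were then gavaged for 5 weeks, with PBS in the DSS group (3 libraries), with Lactobacillus plantarum ZJ316, a lactic acid bacterium, in WT (4 libraries), or with the strains ZJ316-KO and ZJ316-COM (4 libraries each), whose names the labels do not explain. KO and Control therefore differ in the DSS and in the gavage at once, and the parts of these in any difference cannot be told apart. The protocol counts 10 control mice and 50 mice given DSS, which it divides into 5 groups while naming 4. Libraries carry numbers but are not tied to animals, so the p-values below measure the spread between these samples, which may be technical. Per-library sums were 524812 to 558590 FPKM in the 7 libraries, and the number of reads behind them is unknown.

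Colonocyte genes were abundant in each of the 7 libraries, with a mean log2(FPKM + 1) over the list of 7.07 to 7.82. Single libraries stood apart in genes known from other organs or parts of the gut. Hox genes of the distal gut, whose expression follows position along it, had means of 3.69, 3.37 and 2.00 in Control 1 to 3 and of 3.36, 2.58, 3.39 and 3.22 in KO 1 to 4. Control 3 and KO 2 were the lowest, and Hoxb13, a gene of the most distal colon, lay at 364, 296 and 0.76 FPKM in Control and at 261, 79.3, 246 and 269.7 FPKM in KO. The list of pancreatic acinar genes, digestive enzymes mostly, had a mean of 9.18 in KO 3 and of at most 1.05 in the other 6 libraries. Of the 16 acinar genes listed, Cela2a was at 1593 FPKM in KO 3 and at 0.09 FPKM or less in the rest. B cell genes had a mean of 0.398 in Control 3 against 2.12 to 3.23 in the other 6, and adipocyte genes one of 4.37 in Control 3 against 1.82 to 3.68. Many results are given with single libraries left out as well, and some without Control 3, KO 2 and KO 3 together.

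**Figure D1:**
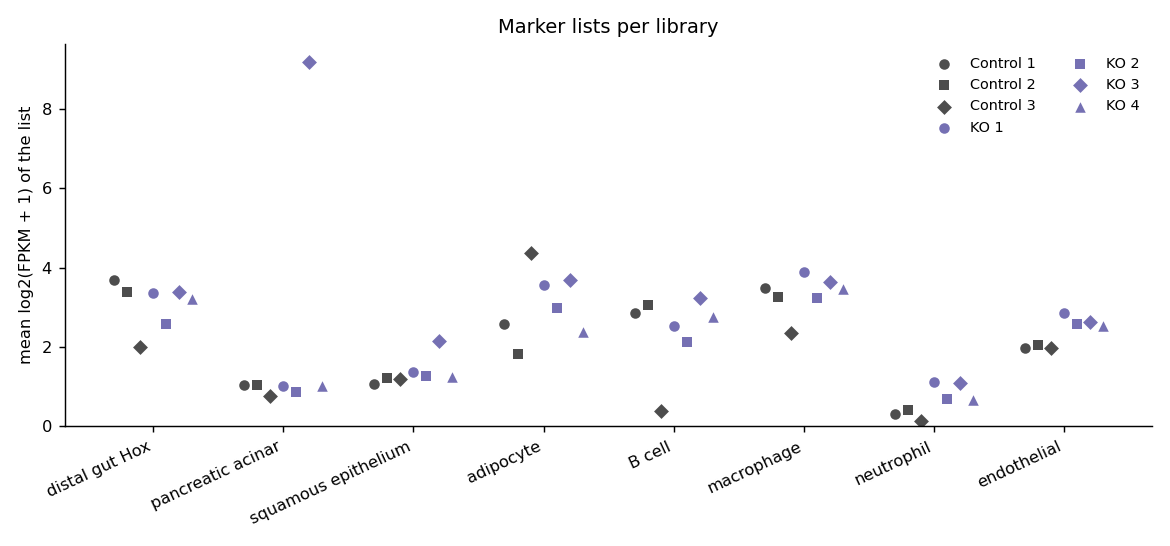
Mean log2(FPKM + 1) of 8 marker lists (vertical axis) in each of the 3 Control libraries (grey) and 4 KO libraries (violet), with a symbol shape for each library number. Acinar genes are high in KO 3 (9.18), Hox genes are low in Control 3 and KO 2, B cell genes are low in Control 3 (0.398), and the endothelial and neutrophil lists do not overlap between the groups.

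Many genes of blood vessels, of connective tissue and of the Clca family, which includes a mucus protein, were higher in KO colon than in Control. All 15 tested endothelial genes, 11 of 22 fibroblast and collagen genes and 4 of 6 Clca genes were called higher, beside 3.87% of all tested genes, with median log2 fold changes of 0.69, 0.55 and 1.01. Clock genes changed both ways, with Dbp and Nr1d1 higher by 2.71 and 2.26 and Cry1 at -1.43. Of 37 enzymes of xenobiotic metabolism 5 were called lower, beside 1.54% of all tested genes. No macrophage, B cell or interferon-response gene of the lists was called.

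In all, 692 of the 12807 genes differed in KO colon at a Benjamini-Hochberg adjusted p under 0.05 in limma (5.4%), 495 of them higher (3.87%) and 197 lower (1.54%). The changes were mostly small: the median absolute log2 fold change of the called genes was 0.50, and 72 reached 1, of which 63 were higher and 9 lower. All changes below are log2 fold changes of FPKM + 1, KO minus Control, ± SE, and the median over all tested genes was 0.02. The libraries of the groups did not overlap in 656 of the 692 called genes, beside 13.1% of all tested genes, 7.9% with KO higher and 5.18% with KO lower. Of the 692, 514 were also called in the same direction in DSS against Control, 555 in WT and 413 in COM. In all 3 groups 361 were, and 88 were called in none of them. Of all genes DSS had 11.3% called higher and 5.46% lower, WT 14.4% and 8.64%, and COM 5.25% and 2.46%. These comparisons share the Control libraries. The model took its estimate of the spread from all 18 libraries. Fitted to the 7 libraries alone it called 2 genes, Dbp and Banp (adjusted p = 0.013 for both), with 1560 genes at an unadjusted p under 0.05 against 2727 in the larger fit, so none of the other genes named below passed there. The count also moved with single libraries: it was 1592 without Control 1, 448 without Control 2, 257 without KO 1 and 426 without KO 3, and of the 692 genes 351 were called without Control 3. By another scale between libraries the balance shifted, to 327 higher and 243 lower after quantile normalization, to 583 and 127 as TPM, and to 473 and 318 once length and GC trends of transcripts were taken out.

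Genes were next named by size of change among those called, at 5 FPKM or more in the higher group. Only genes whose KO and Control libraries did not overlap were taken, so that lack of overlap was fixed by the choice. Positions are those of RefSeq on GRCm38.p6. The largest change was that of Clca4b (chr3:144910921-144932529), a member of the Clca proteins, which regulate calcium-activated chloride channels. It lay at 15.6, 2.94 and 3.82 FPKM in Control and at 137, 288, 60.8 and 211 FPKM in KO. The lowest KO library was several times the highest Control library, and the change was 4.47 ± 0.58 (adjusted p = 0.0017). Khdc1a (chr1:21349677-21352199), a KH-domain gene, had 0.64, 0.61 and 0 FPKM in Control and 11.6, 3.48, 8.84 and 13.4 FPKM in KO, a change of 2.78 ± 0.43 (adjusted p = 0.0029). Khdc1a was under 1 FPKM in each Control library, so it was tested through its KO libraries alone. Control 3 is listed at 0 for it, and KO 2 was the lowest KO library. Adgrf1, an adhesion G protein-coupled receptor (chr17:43270283-43325876), rose from 1.5, 1.82 and 0.17 FPKM to 9.79, 7.92, 5.26 and 9.53 FPKM, by 2.14 ± 0.31 (adjusted p = 0.0021). Dhrs9 (chr2:69380462-69403086), a short-chain dehydrogenase that acts on retinol and steroids, had 2.22, 6.35 and 10.1 FPKM in Control and 21.1, 41.8, 16.6 and 21.5 FPKM in KO. The groups did not overlap, KO 2 was the highest library, and the change was 1.95 ± 0.37 (adjusted p = 0.0077).

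Ly6m, of the Ly6 family of small membrane-anchored proteins (chr15:74878336-74881704), stood at 31.6, 70.6 and 60.5 FPKM in Control and at 162, 285, 134 and 210.4 FPKM in KO, a change of 1.87 ± 0.27 (adjusted p = 0.0021). Capg, which caps actin filaments, had 30.2, 37.1 and 42.8 FPKM in Control and 89.4, 162, 82 and 89.5 FPKM in KO, with 1.46 ± 0.23 (adjusted p = 0.0028). In both genes KO 2 was the highest library by a wide margin, and each KO library exceeded each Control library, as the choice required. Myl7, a myosin light chain known from the heart atrium, lay at 0.15, 0.31 and 3.84 FPKM in Control and at 8.21, 33.8, 5.94 and 7.24 FPKM in KO, with 2.59 ± 0.50 (adjusted p = 0.0092). Its Control 3 library was near the KO range and its KO 2 library far above it. Anxa8, an annexin, showed 35.2, 42.7 and 3.84 FPKM in Control and 100.2, 66.2, 86.3 and 99 FPKM in KO, with 2.15 ± 0.56 (adjusted p = 0.038). Its call was lost without Control 3, KO 1, KO 3 or KO 4 (adjusted p 0.065 to 0.10, and a change of 1.14 without Control 3). Of the 30 genes named by size of change, 15 in each direction, 20 were called with each of the 7 libraries left out in turn.

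**Figure D2:**
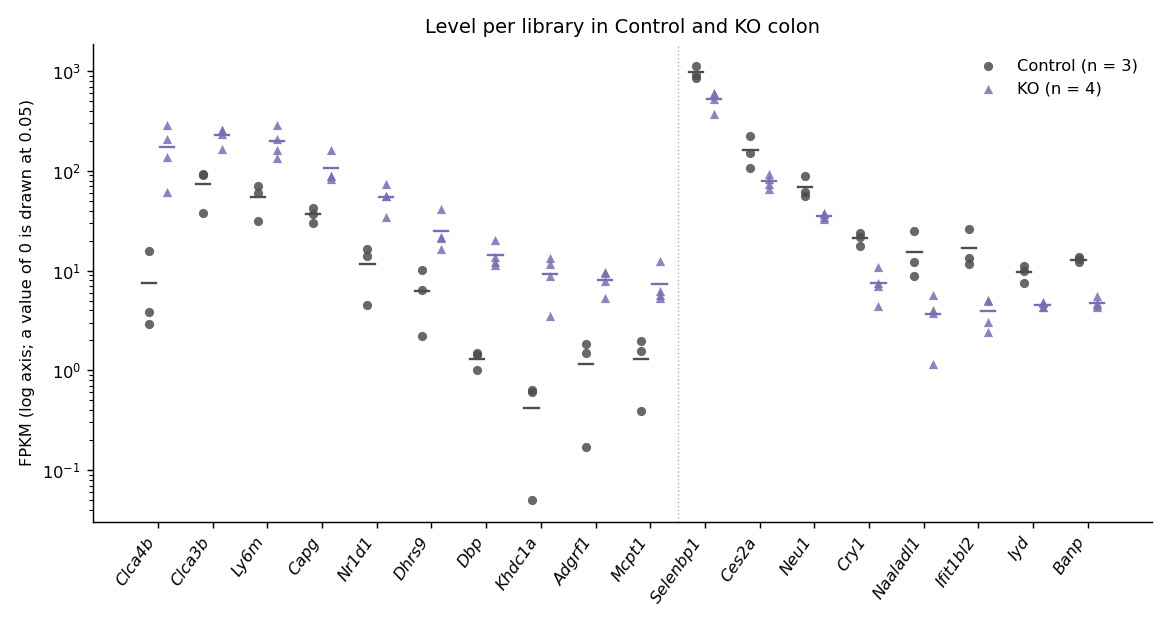
FPKM per library (log axis) of 18 called genes in Control (grey circles, n = 3) and KO (violet triangles, n = 4), with horizontal bars at the group means. The 10 genes to the left of the dotted line were higher in KO and the 8 to the right lower. The 18 come from genes chosen for groups that do not overlap, so the gap between the points of a gene was fixed by that choice.

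The genes that fell were mostly less changed, and those named by size were likewise chosen for groups that do not overlap. Ifit1bl2, a copy of an interferon-induced gene (chr19:34617046-34640827), lay at 11.8, 13.4 and 25.9 FPKM in Control and at 3.07, 2.43, 5.13 and 4.97 FPKM in KO, a change of -1.84 ± 0.27 (adjusted p = 0.0021). The KO libraries were all below the lowest Control library, and Control 3 was the highest. Selenbp1, a methanethiol oxidase abundant in mature epithelium (chr3:94933083-94944758), fell from 856, 925 and 1134 FPKM to 524, 372, 595 and 609 FPKM, with -0.90 ± 0.15 (adjusted p = 0.0041). Neu1, a lysosomal sialidase (chr17:34931253-34937297), had 56, 61.4 and 89.1 FPKM in Control and 34.3, 32.7, 37.3 and 38.1 FPKM in KO, with -0.91 ± 0.13 (adjusted p = 0.0022). Its KO libraries lay close together and all below Control. Iyd, which recovers iodide from iodotyrosines, lay at 11.2, 9.99 and 7.5 FPKM in Control and at 4.89, 4.28, 4.72 and 4.3 FPKM in KO, with -0.92 ± 0.14 (adjusted p = 0.0027). Naaladl1, a peptidase, had 12.3, 8.89 and 24.8 FPKM in Control and 3.76, 1.15, 5.72 and 4.01 FPKM in KO, with -1.80 ± 0.39 (adjusted p = 0.016). It was highest in Control 3, and its call was lost without Control 3 (adjusted p 0.051). Bmp3, a bone morphogenetic protein, Edn2, an endothelin, and H2-Q1, a class I histocompatibility gene with close copies, had changes of -1.25, -1.03 and -0.93. The call of Bmp3 was lost without Control 3, KO 1, KO 2, KO 3 or KO 4 (adjusted p 0.056 to 0.084, and a change of -0.69 without Control 3). That of Edn2 was lost without Control 2, Control 3, KO 1, KO 2, KO 3 or KO 4 (adjusted p 0.053 to 0.14, and a change of -0.64 without Control 3) and that of H2-Q1 without Control 3, KO 1, KO 2 or KO 3 (adjusted p 0.052 to 0.090).

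In the epithelium, the Clca family stood out by size. Of its 8 listed genes 6 were tested, 4 were called higher, none lower, and the median change was 1.01, against 3.87% of all genes called higher. The medians of the same 6 genes against Control were 1.51 in DSS, 1.17 in WT and 0.78 in COM, and these comparisons share the 3 Control libraries. Clca3b had 93.3, 90.7 and 37.8 FPKM in Control and 255, 257, 167 and 234 FPKM in KO, with 1.70 ± 0.28 (adjusted p = 0.0039). Clca1, a secreted mucus protein of goblet cells, had 1374, 1399 and 484 FPKM in Control and 3322, 2281, 1961 and 1752 FPKM in KO, with 1.21 ± 0.31 (adjusted p = 0.035). Control 3 was the lowest library of both genes, and the call of Clca1 was lost without Control 3, KO 1, KO 2 or KO 3 (adjusted p 0.056 to 0.11, and a change of 0.70 without Control 3). Clca3a1 rose from 2.31, 3.43 and 2.13 FPKM to 4.92, 5.93, 4.6 and 5.82 FPKM, with 0.81 ± 0.15 (adjusted p = 0.0063). Clca4a, next to Clca4b on chromosome 3, had 183, 249 and 241 FPKM in Control and 246, 635, 346 and 427 FPKM in KO. It overlapped between the groups at Control 2 and KO 1 and was not called, with 0.81 ± 0.26 (adjusted p = 0.089), while without KO 1 it was 1.03 (adjusted p = 0.044). Members of this family resemble each other in sequence, and how reads were divided among them is not given in the sources used here.

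Goblet cell and mucus genes had 3 of 18 tested members called higher, Clca1, Fcgbp and Spink4, and none lower, beside 3.87% and 1.54% of all tested genes, with a median of 0.39 (0.18 to 0.63 with 1 library left out). Fcgbp, an abundant mucus protein, lay at 365, 382 and 158 FPKM in Control and at 839.5, 676, 555 and 489 FPKM in KO, with 1.16 ± 0.24 (adjusted p = 0.012), and at 0.74 without Control 3. Spink4, a secreted protein of goblet cells, had 395, 1108 and 825 FPKM in Control and 1370, 2170, 1175 and 1289 FPKM in KO, with 1.03 ± 0.28 (adjusted p = 0.042). Its call was lost without Control 1, KO 1, KO 2, KO 3 or KO 4 (adjusted p 0.052 to 0.090, and a change of 0.61 without Control 1). Zg16, a lectin of the mucus, overlapped between the groups, with 0.42 ± 0.24 (adjusted p = 0.32). Its change was 0.12 without Control 3, and without Control 1 it was 0.77 (adjusted p = 0.025). The list's count was 5 without Control 3 and 1 without KO 1, KO 2 or KO 3.

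Among 17 tested antimicrobial genes 1 was called higher, Ang4, a ribonuclease secreted by goblet and Paneth cells, a share near the 3.87% of all tested genes. Its levels spread widely, at 4.7, 637 and 40.1 FPKM in Control and 1009, 1392, 758 and 416 FPKM in KO. Control 2 lay above KO 4, so the groups overlapped, and the change was 3.94 ± 1.03 (adjusted p = 0.038). That call was lost without Control 1, Control 3, KO 1, KO 2 or KO 3 (adjusted p 0.069 to 0.097, and a change of 2.34 without Control 1). S100a8, a calprotectin subunit, is listed at 0 in the 3 Control libraries and at 3.93, 5.94, 2 and 0.87 FPKM in KO. It was not called (adjusted p = 0.060, and 0.039 without KO 4), nor were Nos2, the inducible nitric oxide synthase, and Lcn2, an iron-withholding protein, with 1.58 ± 0.54 (adjusted p = 0.10) and 1.01 ± 0.30 (adjusted p = 0.061). For Lcn2, without KO 3 it was 1.23 (adjusted p = 0.034). In all 3 genes the KO libraries lay above the Control libraries, as in 4 of the 17 and in 7.9% of all tested genes. S100a8 was tested through its KO libraries alone. The median of the 17 was 0.91, and 0.48 without Control 1, beside 1.01 in DSS, 0.53 in WT and 0.72 in COM.

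The list of acute phase and nitric oxide genes had 3 of 18 called higher and none lower, beside 3.87% and 1.54% of all tested genes, with a median of 0.74, and 1 called without KO 1. Serpina3n, a secreted protease inhibitor, had 8.32, 8.1 and 3.89 FPKM in Control and 26.4, 16, 17.2 and 18 FPKM in KO, with 1.42 ± 0.27 (adjusted p = 0.0073). The KO libraries all lay above Control, while the mean in DSS was 33.9 ± 9.05 FPKM (SD, n = 3) and in WT 37.2 ± 6.11 FPKM (SD, n = 4). Steap4, a metalloreductase, rose by 1.20 ± 0.29 (adjusted p = 0.026) and Zc3h12a, a ribonuclease that limits cytokine messages, by 0.69 ± 0.18 (adjusted p = 0.039). The first call was lost without KO 1 (adjusted p 0.086) and the second without Control 1, Control 3, KO 1, KO 2 or KO 4 (adjusted p 0.064 to 0.10). Lrg1 did not pass, with 1.12, 1.66 and 2.5 FPKM in Control, 7.36, 12.1, 4.87 and 10.7 FPKM in KO and 1.79 ± 0.50 (adjusted p = 0.051). Against Control, 10 of the 18 were called higher in DSS, 10 in WT and 5 in COM, where 11.3%, 14.4% and 5.25% of all genes were.

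Markers of mature colonocytes had 1 of 17 members called lower, beside 1.54% of all tested genes. It was Cdhr5, a brush border cadherin, with 487, 504 and 658 FPKM in Control, 395, 419, 416 and 423 FPKM in KO and -0.40 ± 0.10 (adjusted p = 0.026). Its call was lost without Control 3, KO 1 or KO 3 (adjusted p 0.052 to 0.080, and a change of -0.26 without Control 3). Car1, a carbonic anhydrase of the proximal colon, was at 2055, 1163 and 15636 FPKM in Control and at 1027, 1498, 1267 and 1318 FPKM in KO. Control 3 alone was high, and the change of -1.40 ± 0.66 (adjusted p = 0.24) did not pass and was -0.29 without Control 3 and -2.16 without Control 2. None of 19 tight junction and barrier genes was called, nor any of 24 proliferation genes, whose medians were -0.14 and 0.25.

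Vascular genes moved together. All 15 tested endothelial genes of 16 listed were called higher in KO than in Control, with a median of 0.69, against 3.87% of all genes. Their libraries did not overlap in any of the 15, beside 7.9% of all tested genes with KO higher. Among called genes this is usual, as 656 of the 692 did not overlap. Pecam1, the adhesion molecule of endothelial junctions (chr11:106654213-106715281), lay at 9.61, 10.8 and 7.52 FPKM in Control and at 22.2, 15.4, 18.4 and 15.9 FPKM in KO, with 0.88 ± 0.12 (adjusted p = 0.0021). Cdh5, the cadherin of those junctions, had 3.12, 2.61 and 2.29 FPKM in Control and 7.09, 5.03, 5.82 and 4.65 FPKM in KO, with 0.85 ± 0.13 (adjusted p = 0.0022). Kdr, a receptor of vascular endothelial growth factor, had 1.65, 1.83 and 1.93 FPKM in Control and 4.72, 4.37, 3.44 and 3.18 FPKM in KO, with 0.80 ± 0.11 (adjusted p = 0.0021). KO 1 was the highest library of these 3 genes, and the separation held in each. Cldn5, a tight junction protein of vessels, rose by 0.90 ± 0.18 (adjusted p = 0.011), and Emcn, a sialomucin of capillaries and veins, by 0.77 ± 0.14 (adjusted p = 0.0055). With each of the 7 libraries left out in turn, 11 to 15 members were called, and 7 of them under a minimum of 5 FPKM, which most members do not reach. The medians against Control were 0.76 in DSS, 0.68 in WT and 0.57 in COM. None of the 15 was called in KO against any of those groups. In bulk tissue a larger number of vessel cells and more RNA per cell cannot be told apart.

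**Figure D3:**
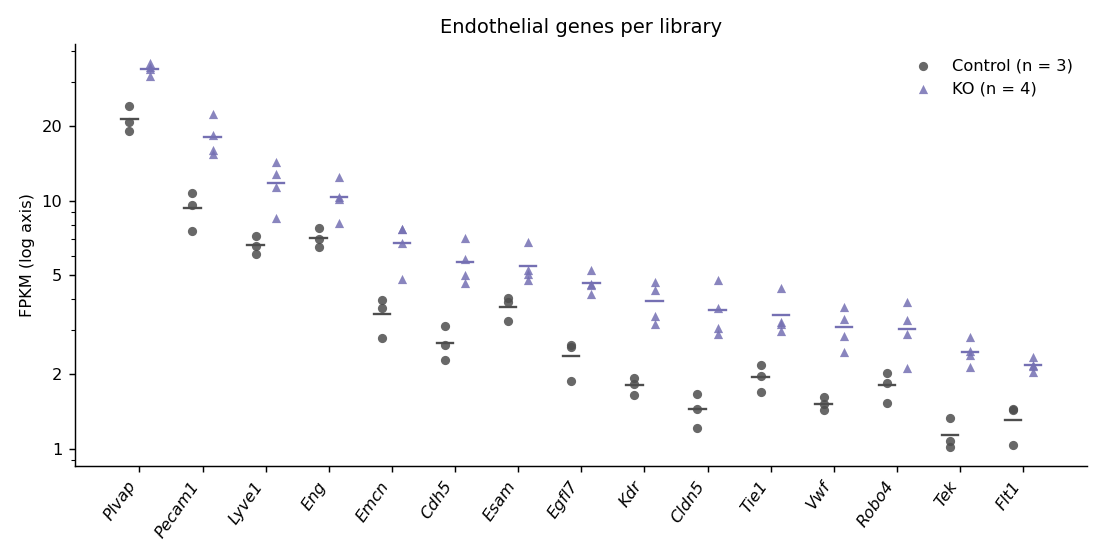
FPKM per library (log axis) of the 15 tested endothelial genes in Control (grey circles, n = 3) and KO (violet triangles, n = 4), ordered by their mean in KO, with bars at the group means. In each of the 15 genes the lowest KO library lies above the highest Control library, as in 7.9% of all tested genes.

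Genes of fibroblasts and collagens had 11 of 22 members called higher and none lower, beside 3.87% and 1.54% of all tested genes, with a median of 0.55 and all 22 changes above 0. Dcn, a small proteoglycan that binds collagen, had 115, 102 and 58.1 FPKM in Control and 241, 145, 248 and 174 FPKM in KO, with 1.15 ± 0.23 (adjusted p = 0.0092). Col18a1, a collagen of basement membranes, had 5.92, 5.34 and 4.8 FPKM in Control and 15.2, 10.2, 10.6 and 10.2 FPKM in KO, with 0.97 ± 0.17 (adjusted p = 0.0050). Lum, another collagen-binding proteoglycan, rose from 12.3, 11 and 10.4 FPKM to 22.2, 22, 22 and 18.9 FPKM, with 0.86 ± 0.15 (adjusted p = 0.0059). No KO library of these genes reached down to the Control range, although KO 2 came near it for Dcn. Col1a2, a chain of collagen I, had 0.83 ± 0.20 (adjusted p = 0.026), and that call was lost without Control 3, KO 1 or KO 3 (adjusted p 0.060 to 0.087, and a change of 0.55 without Control 3). The number called fell to 5 without Control 2 and to 3 without Control 3, KO 1 or KO 3, while the median stayed between 0.44 and 0.64 over these fits. In DSS, WT and COM, 21, 21 and 15 of the 22 were called higher, where 11.3%, 14.4% and 5.25% of all genes were.

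Matrix proteases and their inhibitors had 6 of 19 members called higher and none lower, beside 3.87% and 1.54% of all tested genes, with a median of 0.56. Mmp10 and Mmp3, stromelysins that cleave matrix, rose by 1.62 ± 0.33 (adjusted p = 0.011) and 1.39 ± 0.23 (adjusted p = 0.0039). Mmp3 lay at 0.89, 0.72 and 0.41 FPKM in Control and at 4.15, 5.09, 2.16 and 2.58 FPKM in KO, and Mmp10 at 0.16, 0.5 and 0.21 and 3.89, 4.13, 1.92 and 2.32 FPKM. Both were under 1 FPKM in each Control library, so the log scale with 1 added understates their change. They were tested through their KO libraries alone, which can raise the share called higher. Mmp2, a gelatinase, had 9.51, 10.9 and 7.14 FPKM in Control and 23.9, 16, 17.6 and 14.7 FPKM in KO, with 0.90 ± 0.18 (adjusted p = 0.010). Mmp2, Mmp3 and Mmp10 were called with each of the 7 libraries left out, and 5 to 8 of the list were. Without Control 3, KO 2 and KO 3 together, the calls of Mmp2 and Mmp10 were lost.

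Smooth muscle genes moved little. None of 16 was called and 14 lay below 0, with a median of -0.13 (-0.19 to -0.07 with 1 library left out), beside -0.36 in DSS, -0.42 in WT and -0.28 in COM. Des, the muscle intermediate filament, was at 312, 281 and 288 FPKM in Control and 244, 254, 242 and 198 FPKM in KO, without overlap, and its -0.33 ± 0.14 (adjusted p = 0.18) did not pass. Of 18 genes of neurons and glia 1 was called lower, beside 1.54% of all tested genes, Nefm, a neurofilament, with -0.40 ± 0.11 (adjusted p = 0.039), and 17 lay below 0, with a median of -0.34 (-0.51 to -0.20 with 1 library left out). The call of Nefm was lost without Control 2, Control 3, KO 1, KO 3 or KO 4 (adjusted p 0.057 to 0.11). Without Control 1, 8 of the list were called lower, in a fit that called 527 of all genes lower against 197 with all libraries. In WT, 14 of the 18 were called lower against Control, and in DSS 6, where 8.64% and 5.46% of all genes were.

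Marker genes of macrophages, B cells, plasma cells and T and NK cells gave few calls. Of 12 macrophage genes none was called, although all 12 lay above 0 with a median of 0.63, beside 1.24 in DSS, 1.26 in WT and 0.85 in COM. In those groups 11, 12 and 7 of them were called higher, where 11.3%, 14.4% and 5.25% of all genes were, beside 3.87% in KO. Csf1r, the receptor for macrophage colony-stimulating factor, was at 8.9, 7.77 and 3.27 FPKM in Control and at 13.8, 7.21, 11.6 and 8.72 FPKM in KO. Control 3 was low and KO 2 and KO 4 lay within the Control range, and the change was 0.62 ± 0.24 (adjusted p = 0.15). It was 0.24 without Control 3, and without Control 1 it was 0.85 (adjusted p = 0.038). Ms4a7, a membrane protein of macrophages, had 0.69 ± 0.20 (adjusted p = 0.061), and without Control 1 it was 0.93 (adjusted p = 0.010). Without Control 1, 7 of the 12 were called, in a fit that called 1065 of all genes higher against 495 with all libraries. Without Control 3 the median was 0.17.

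B cell genes had a median of 0.56 over 12 members with none called, and this value rested on Control 3, without which it was -0.34. Plasma cell genes had none of 10 called, with a median of 0.39 and one of 0.04 without Control 3. Their Jchain, the joining chain of secreted antibodies, lay at 413, 306 and 42.9 FPKM in Control and 653, 239.8, 426 and 369 FPKM in KO. For Jchain, Control 3 was the lowest library and Control 1 and 2 lay within the KO range. Class II histocompatibility genes had none of 10 called with a median of 0.25 (-0.12 to 0.55 with 1 library left out), and of 14 T and NK cell genes, with a median of 0.15 (0.02 to 0.29 with 1 library left out), 1 was called higher, beside 3.87% of all tested genes. It was Cd247, the zeta chain of the T cell receptor, with 0.71 ± 0.18 (adjusted p = 0.034). Cd247 was under 1 FPKM in each Control library and so was tested through its KO libraries alone, which can raise the share called higher. The call of Cd247 was lost without Control 2, Control 3, KO 1 or KO 3 (adjusted p 0.064 to 0.10).

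Neutrophil genes were low everywhere. The list mean was 0.319, 0.406 and 0.125 in Control and 1.11, 0.701, 1.10 and 0.676 in KO on the log2(FPKM + 1) scale, without overlap. Of 5 tested members of 12 listed 1 was called higher, beside 3.87% of all tested genes, Il1r2, a decoy receptor for interleukin 1, with 0.28, 0.68 and 0.35 FPKM in Control, 1.71, 1.18, 1.69 and 0.83 FPKM in KO and 0.70 ± 0.18 (adjusted p = 0.033). Its call was lost without Control 1, Control 3, KO 1 or KO 3 (adjusted p 0.057 to 0.10). The listed granule genes Ngp, Camp, Retnlg and Mmp8 were at 0.58 FPKM or less in each of the 7 libraries. Il1b, the interleukin 1 beta gene, had 0.86, 2.19 and 0.52 FPKM in Control and 8.47, 3.52, 5.78 and 3.02 FPKM in KO, with 1.49 ± 0.33 (adjusted p = 0.018). It was the 1 called of 6 tested cytokine genes of 17 listed, whose median was 0.55 (0.09 to 0.81 with 1 library left out). The call of Il1b was lost without Control 3 or KO 1 (adjusted p 0.053 to 0.060). In both lists a gene could be tested through its KO libraries alone, which can raise the share called higher.

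Chemokines and their receptors had 6 of 27 members called higher and none lower, beside 3.87% and 1.54% of all tested genes, with a median of 0.53, and 0.20 without Control 3. Ccl11, which attracts eosinophils, lay at 1.4, 3.05 and 3.05 FPKM in Control and at 10.1, 7.3, 6.59 and 6.31 FPKM in KO, with 1.31 ± 0.18 (adjusted p = 0.0020). Ccl21a, a chemokine of lymphatic vessels and lymphoid stroma, had 55.1, 76.2 and 38.8 FPKM in Control and 195, 101, 173 and 159 FPKM in KO, with 1.47 ± 0.26 (adjusted p = 0.0050). The gene has near-identical copies, so its level is uncertain. Cxcl12 and Cxcl14, made by stromal cells, rose by 0.85 ± 0.18 (adjusted p = 0.015) and 0.87 ± 0.18 (adjusted p = 0.013). Each KO library of these 4 genes exceeded each Control library. Ccl8, a monocyte attractant, rose by 1.24 ± 0.32 (adjusted p = 0.034) and lost its call without Control 2, Control 3, KO 1, KO 2 or KO 3 (adjusted p 0.056 to 0.098).

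Homing and adhesion genes had 3 of 14 called higher, beside 3.87% of all tested genes, and all 14 above 0, with a median of 0.58, and 0.25 without Control 3. Cd34, carried by capillary endothelium and some stromal cells, had 6.68, 6.66 and 4.73 FPKM in Control and 15.9, 9.12, 12.8 and 11.7 FPKM in KO, with 0.92 ± 0.16 (adjusted p = 0.0056). Glycam1, a ligand for lymphocytes on high endothelial venules, is listed at 0.96, 0.99 and 0 FPKM in Control and 8.84, 2.44, 6.66 and 5.03 FPKM in KO, with 2.00 ± 0.53 (adjusted p = 0.039). With each Control library under 1 FPKM, Glycam1 was tested through its KO libraries alone, which can raise the share called higher. Madcam1, the mucosal addressin, rose by 0.89 ± 0.24 (adjusted p = 0.045). The calls of Glycam1 and Madcam1 were lost without Control 2, Control 3, KO 1, KO 3 or KO 4 (adjusted p 0.053 to 0.14), and Madcam1 was at 0.56 without Control 3. The list then had 1 call. B cell genes, low in Control 3, moved with these genes, and their part in the result was not tested. Mast cell proteases rose: Mcpt1, a chymase of mucosal mast cells, had 1.55, 1.98 and 0.39 FPKM in Control and 6.28, 12.4, 5.29 and 5.66 FPKM in KO, with 1.86 ± 0.35 (adjusted p = 0.0069). Mcpt2, its neighbour on chromosome 14 with a similar sequence, rose by 1.45 ± 0.33 (adjusted p = 0.021), a call that was lost without Control 3 (adjusted p 0.061). They were 2 of 4 tested mast cell genes of 11 listed, where 3.87% of all genes were called higher. A gene could be tested through its KO libraries alone, so the share called higher in this low list can be raised by that rule. Interferon-response genes had none of 28 called, and 22 lay below 0 with a median of -0.31 (-0.38 to -0.20 with 1 library left out). Irf7, which induces interferon genes, was at 169, 102 and 248 FPKM in Control and 59.9, 78.9, 77 and 74.8 FPKM in KO, with -1.15 ± 0.33 (adjusted p = 0.053), and without Control 2 it was -1.49 (adjusted p = 0.027).

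**Figure D4:**
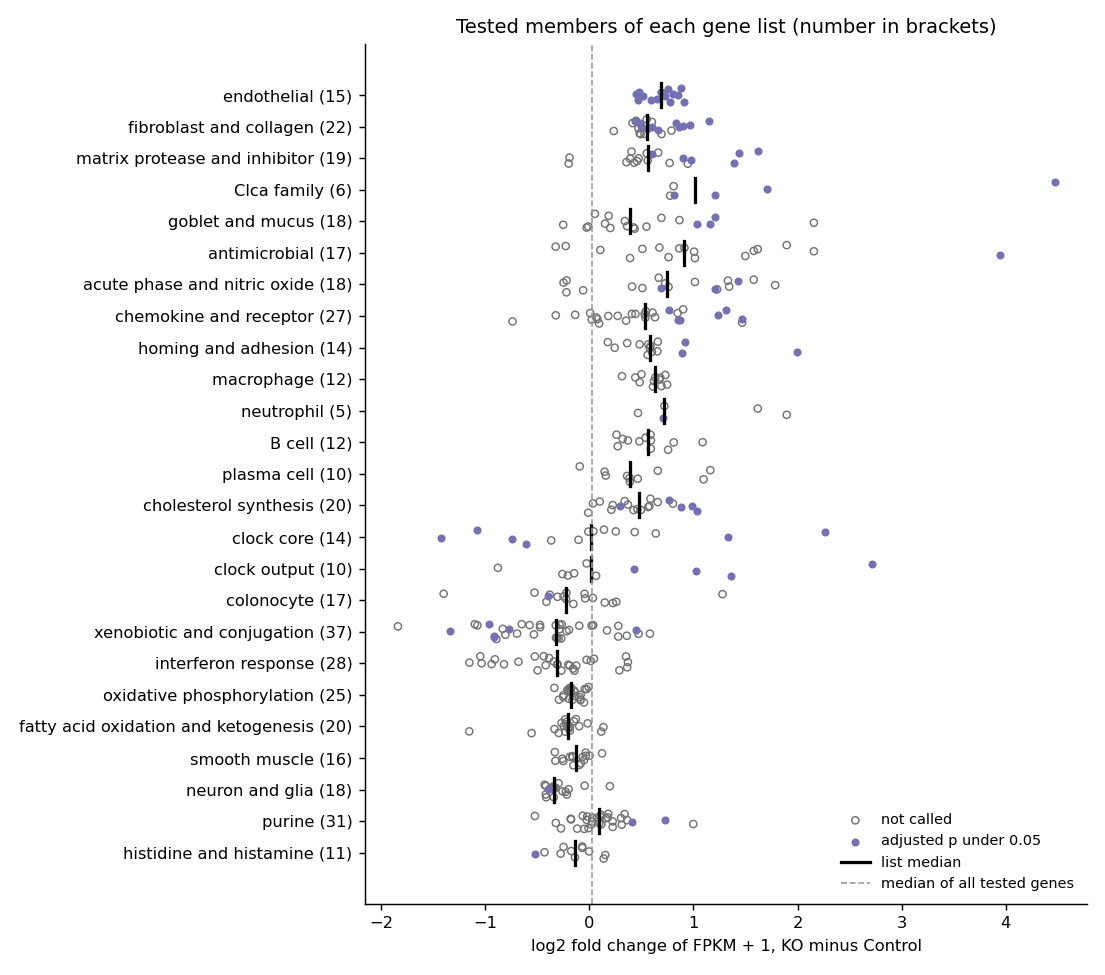
Log2 fold change of FPKM + 1, KO minus Control (horizontal axis), of every tested member of 25 gene lists, with filled points at an adjusted p under 0.05, a black bar at the list's median and a dashed line at the median of all tested genes (0.02). All 15 endothelial points are filled and above 0, clock genes spread to both sides, and the 12 macrophage points are open.

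Clock genes changed in both directions. Of 14 tested core genes 2 were called higher, Nr1d1 and Nr1d2, and 4 lower, Cry1, Arntl and Npas2 among them, and of 10 output genes 4 were called higher, Dbp, Tef, Tspan4 and Hlf, where 3.87% of all genes were called higher and 1.54% lower. The labels give no time of day at which colons were taken, and its part in these values was not tested. Dbp, a transcription factor of the clock's output (chr7:45705100-45710203), lay at 1.01, 1.48 and 1.43 FPKM in Control and at 13.7, 11.4, 12.2 and 20.3 FPKM in KO. The lowest KO library was several times the highest Control library, and the change was 2.71 ± 0.30 (adjusted p = 0.00079). Tef, a related factor (chr15:81802673-81826863), had 3.58, 5.66 and 4.74 FPKM in Control and 13.4, 10.0, 14.9 and 15.7 FPKM in KO, with 1.36 ± 0.24 (adjusted p = 0.0054). Tspan4, a tetraspanin listed with the outputs, rose from 3.11, 2.42 and 1.6 FPKM to 6.65, 5.51, 5.84 and 5.08 FPKM, with 1.02 ± 0.15 (adjusted p = 0.0021). Hlf, the third such factor, was low and rose by 0.43 ± 0.12 (adjusted p = 0.049), a call that was lost with any of the 7 libraries left out (adjusted p 0.060 to 0.12). Nfil3, a repressor at the same sites, lay at 4.58, 7.15 and 10.8 FPKM in Control and 3.42, 3.47, 3.72 and 3.07 FPKM in KO and did not pass, with -0.88 ± 0.27 (adjusted p = 0.070), while without Control 1 it was -1.15 (adjusted p = 0.018).

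Nr1d1, a repressor that binds the Arntl gene (chr11:98767932-98775377), stood at 4.48, 14.1 and 16.5 FPKM in Control and at 56.2, 34.7, 55.8 and 74.2 FPKM in KO, with 2.26 ± 0.33 (adjusted p = 0.0021). Nr1d2, its close relative (chr14:18204056-18239106), had 3.26, 7.31 and 9.29 FPKM in Control and 18.9, 13, 18.1 and 18.7 FPKM in KO, with 1.33 ± 0.24 (adjusted p = 0.0061). Control 1 was the lowest library of both genes, and all KO libraries exceeded Control. Cry1, a repressor of CLOCK and ARNTL (chr10:85131700-85185054), fell from 21.6, 23.7 and 17.8 FPKM to 4.46, 10.8, 7.44 and 7.08 FPKM, with -1.43 ± 0.19 (adjusted p = 0.0018). Arntl, the activator itself, had 42.3, 39 and 23.3 FPKM in Control and 19.1, 20.1, 21 and 19 FPKM in KO, with -0.75 ± 0.15 (adjusted p = 0.012), and the highest KO library was just below Control 3. Npas2, a partner that can stand in for CLOCK, changed by -0.61 ± 0.15 (adjusted p = 0.028), a call lost without Control 1, Control 2, KO 1 or KO 2 (adjusted p 0.058 to 0.075). Clock, Cry2, Rora, Bhlhe40 and the 3 Per genes were not called, with changes of -0.10, -0.01, 0.04, 0.14, and of 0.25, -0.37 and 0.64 for Per1, Per2 and Per3. With each library left out, the core list kept 2 to 3 calls upward and 3 to 4 downward.

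Promoter letters are shown for 4 clock genes, picked by hand among those whose level differed. CLOCK and ARNTL bind the E-box, NR1D proteins the half-site AGGTCA and DBP, TEF and HLF the D-box. The lines give 250 bases before the RefSeq start on GRCm38.p6, 5′ to 3′ on the gene's strand, and capitals mark a match to the E-box CACGTG, the half-site AGGTCA or the D-box TTATGTAA on either strand. Cry1 (chr10:85185055-85185304, minus strand) holds an E-box at position -60 from the start. Tef (chr15:81811164-81811413, plus strand, the second of 2 starts) holds one at -138. Nr1d2 (chr14:18239107-18239356, minus strand) holds a half-site at -77, and Nr1d1 (chr11:98775378-98775627, minus strand) none of the 3.
Cry1: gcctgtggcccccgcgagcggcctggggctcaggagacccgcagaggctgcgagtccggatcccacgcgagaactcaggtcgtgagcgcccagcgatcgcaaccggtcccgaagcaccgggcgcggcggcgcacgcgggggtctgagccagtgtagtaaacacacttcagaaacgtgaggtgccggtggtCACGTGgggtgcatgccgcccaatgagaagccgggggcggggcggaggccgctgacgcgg
Tef: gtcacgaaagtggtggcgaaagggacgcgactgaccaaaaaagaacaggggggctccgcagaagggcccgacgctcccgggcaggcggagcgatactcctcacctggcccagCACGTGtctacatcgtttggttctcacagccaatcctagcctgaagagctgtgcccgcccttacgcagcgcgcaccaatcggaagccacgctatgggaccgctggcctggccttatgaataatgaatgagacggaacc
Nr1d2: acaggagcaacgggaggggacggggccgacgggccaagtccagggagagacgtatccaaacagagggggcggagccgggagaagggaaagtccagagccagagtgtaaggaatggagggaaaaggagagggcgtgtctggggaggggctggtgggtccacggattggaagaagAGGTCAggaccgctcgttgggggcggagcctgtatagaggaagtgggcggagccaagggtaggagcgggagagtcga
Nr1d1: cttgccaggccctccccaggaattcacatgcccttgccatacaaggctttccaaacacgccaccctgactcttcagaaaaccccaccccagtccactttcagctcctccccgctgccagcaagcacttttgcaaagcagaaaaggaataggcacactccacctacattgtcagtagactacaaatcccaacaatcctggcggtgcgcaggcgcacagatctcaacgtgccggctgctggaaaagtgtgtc
Of the 24 tested clock genes 20 had such a window and 6 of these held the E-box (30%), as did 3 of the 9 called ones (33.3%), against 9.79% of 10240 tested genes with a window. Among genes called higher and lower against Control the shares with an E-box were 10.8% of 361 and 12.8% of 156. The half-site stood in 4 of the 20 tested clock genes (20%) and 1 of the 9 called (11.1%), against 13.3% of tested genes. The D-box stood in 1 of the 20 (5%) and 0 of the 9, against 0.596%. Among the called clock genes whose windows are not printed, Arntl, Dbp, Hlf and Npas2 held none of the 3 motifs. These are matches of letters and no measure of binding.

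Dbp was called between KO and some of the other groups given DSS. It had a mean of 1.31 ± 0.258 FPKM in Control, 1.92 ± 1.01 in DSS, 4.17 ± 2.44 in WT, 14.4 ± 4.03 in KO and 19.6 ± 3.98 in COM (SD, n = 3, 3, 4, 4 and 4). KO was above DSS by 2.42 ± 0.30 (adjusted p = 0.0068) and above WT by 1.65 ± 0.28 (adjusted p = 0.028), and the difference from COM was -0.43 ± 0.28 (adjusted p = 0.61). The call against DSS was lost without DSS 1 or DSS 3 (adjusted p 0.050 to 0.063) and that against WT without WT 1, WT 2, WT 3, KO 2, KO 3 or KO 4 (adjusted p 0.058 to 0.13). Tef had means of 4.66 ± 1.04 FPKM in Control, 5.81 ± 1.69 in DSS, 8.25 ± 3.59 in WT, 13.5 ± 2.51 in KO and 19.3 ± 1.9 in COM. Its difference between KO and DSS did not pass, with 1.10 ± 0.24 (adjusted p = 0.070). The order Control, DSS, WT, KO and COM ran upward in the means of Dbp, Tef, Nr1d1 and Nr1d2 and downward in those of Cry1 and Arntl. Control and DSS overlapped in Dbp, Tef, Nr1d2 and Arntl but not in Nr1d1 and Cry1, and WT and KO overlapped in each of these genes but Dbp and Arntl.

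**Figure D5:**
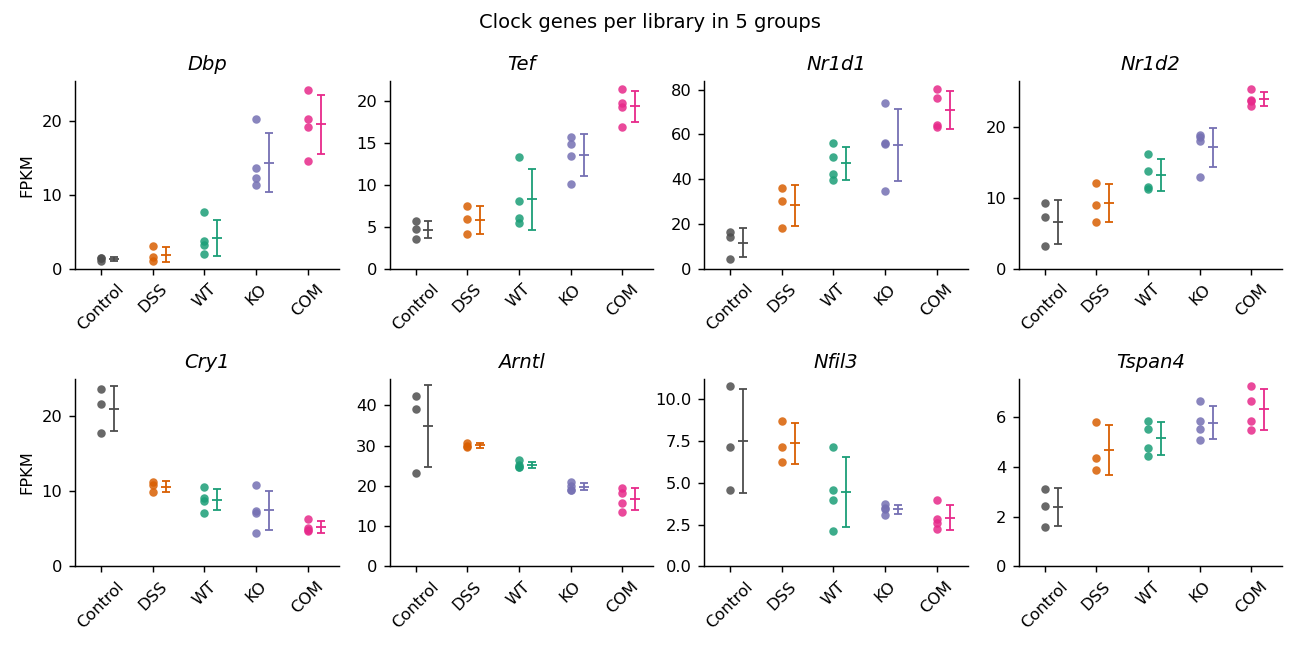
FPKM per library of 8 clock genes in the 5 groups (points; bars are mean ± SD beside them; linear axes from 0; n = 3 in Control and DSS and 4 in the others). Dbp, Tef, Nr1d1 and Nr1d2 have their highest means in COM and then KO, Cry1 and Arntl their highest in Control, and Nfil3 was not called in KO against Control.

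Genes of cholesterol synthesis and uptake had 5 of 20 members called higher and none lower, beside 3.87% and 1.54% of all tested genes, with a median of 0.48 (0.23 to 0.76 with 1 library left out). Fdft1, the squalene synthase, and Insig1, a sterol sensor, rose by 0.77 ± 0.18 (adjusted p = 0.023) and 0.88 ± 0.24 (adjusted p = 0.046), and Stard4, a sterol carrier, by 0.29 ± 0.07 (adjusted p = 0.032). The call of Fdft1 was lost without Control 2, Control 3 or KO 1 (adjusted p 0.059 to 0.061), that of Insig1 without Control 3, KO 1, KO 2, KO 3 or KO 4 (adjusted p 0.066 to 0.13, and a change of 0.44 without Control 3) and that of Stard4 without Control 2, Control 3, KO 1, KO 2 or KO 4 (adjusted p 0.059 to 0.086). The list had 16 calls without Control 1, 3 without Control 2, KO 2 or KO 4, and 2 without Control 3 or KO 1. Without Control 1, 1065 of all genes were called higher, against 495 with all libraries. Its medians against Control were -0.08 in DSS, 0.31 in WT and 0.29 in COM, and none of the 20 was called in KO against DSS, where 0.148% of all genes were called.

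Enzymes of xenobiotic metabolism and conjugation had 5 of 37 members called lower and 1 higher, beside 1.54% and 3.87% of all tested genes, the latter Ephx1, an epoxide hydrolase, with 0.45 ± 0.10 (adjusted p = 0.020). The median was -0.32 (-0.70 to -0.12 with 1 library left out). Ces2a, a carboxylesterase (chr8:104734003-104741634), fell from 107, 151 and 225 FPKM to 74.6, 65.2, 83 and 92.4 FPKM, with -0.97 ± 0.19 (adjusted p = 0.0097). Sult1a1, a phenol sulfotransferase, had 279, 315 and 458 FPKM in Control and 186, 128, 216 and 208 FPKM in KO, with -0.92 ± 0.20 (adjusted p = 0.019). Ces1d and Ces2c, further carboxylesterases, had -1.34 ± 0.38 (adjusted p = 0.049) and -0.92 ± 0.23 (adjusted p = 0.030), and Cyp3a13, a cytochrome P450, -0.77 ± 0.18 (adjusted p = 0.023). In each of these 5 genes Control 3 was the highest library. Ces2a was called with each library left out, but not without Control 3, KO 2 and KO 3 together. The call of Sult1a1 was lost without Control 3 (adjusted p 0.058) and that of Cyp3a13 without Control 2, Control 3 or KO 1 (adjusted p 0.062 to 0.075). That of Ces1d was lost without Control 2, Control 3, KO 1, KO 2, KO 3 or KO 4 (adjusted p 0.053 to 0.16, and a change of -0.86 without Control 3) and that of Ces2c without Control 2, Control 3, KO 1 or KO 3 (adjusted p 0.060 to 0.086, and a change of -0.60 without Control 3). The list's count of 5 was 11 without Control 1, 3 without Control 3 or KO 3 and 2 without Control 2 or KO 1. Without Control 1, 527 of all genes were called lower, against 197 with all libraries. Control 3 is also the library lowest in distal Hox genes (2.00), and the part of gut position in these genes was not tested. The carboxylesterases are near copies of each other, so their single levels are uncertain.

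Respiratory chain genes lay slightly lower as a list, with none of 25 called, all 25 below 0 and a median of -0.18. In DSS, WT and COM 16, 17 and 11 of them were called lower, where 5.46%, 8.64% and 2.46% of all genes were, beside 1.54% in KO. In KO, 5 were called without Control 1 and 4 without KO 2. Those fits called 527 and 183 of all genes lower, against 197 with all libraries. Ndufv1, a subunit of complex I, was at 71.4, 78.5 and 79 FPKM in Control and 64.8, 71.4, 63.3 and 67.3 FPKM in KO, with -0.19 ± 0.05 (adjusted p = 0.052), while without Control 1 it was -0.24 (adjusted p = 0.017) and without KO 2 it was -0.22 (adjusted p = 0.030). Fatty acid oxidation genes had none of 20 called (median -0.21, and 0.11 without Control 3). Ribosomal protein genes had none of 24 called, with a median of 0.13. Among 7 genes of steroid and glucocorticoid synthesis 2 were called lower, beside 1.54% of all tested genes, with a median of -0.41 (-0.79 to 0.06 with 1 library left out). Hsd17b2, which oxidises estradiol, had 113, 164 and 157 FPKM in Control and 88.6, 91.2, 95.2 and 93 FPKM in KO, with -0.63 ± 0.11 (adjusted p = 0.0050). Nr5a2, a nuclear receptor that drives local steroid synthesis, changed by -0.71 ± 0.16 (adjusted p = 0.020), a call lost without Control 3 or KO 1 (adjusted p 0.059 to 0.067).

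The series names purine and histidine metabolism in its title, so both lists were examined in the colon. Of 42 purine genes listed 31 were tested and 2 were called higher, with a median of 0.10 (0.02 to 0.13 with 1 library left out), where 3.87% of all genes were called higher. Atic, the enzyme of the last steps of purine synthesis, lay at 29.1, 30.3 and 26.3 FPKM in Control and at 41.1, 41.2, 34.4 and 36 FPKM in KO, with 0.41 ± 0.10 (adjusted p = 0.035). Entpd1, an enzyme on vessel and immune cells that degrades extracellular ATP, had 4.91, 3.49 and 2 FPKM in Control and 8.77, 4.14, 6.09 and 6.19 FPKM in KO, overlapping at Control 1, with 0.73 ± 0.20 (adjusted p = 0.045). The call of Atic was lost without Control 2, Control 3, KO 1 or KO 2 (adjusted p 0.053 to 0.11) and that of Entpd1 without Control 2, Control 3, KO 1, KO 3 or KO 4 (adjusted p 0.080 to 0.15, and a change of 0.47 without Control 3). Of 21 histidine, histamine and carnosine genes 11 were tested and 1 was called lower, beside 1.54% of all tested genes, Cndp2, a dipeptidase that can cleave carnosine. It fell from 32.1, 39.7 and 40.7 FPKM to 28.3, 22.5, 25.9 and 26 FPKM, with -0.53 ± 0.10 (adjusted p = 0.0062). It was called with each library left out, but not without Control 3, KO 2 and KO 3 together. Its changes against Control were -0.58 in DSS, -0.54 in WT and -0.46 in COM.

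To see where KO differed from the other groups given DSS, it was compared with each in the same model. KO differed from DSS in 19 genes (0.148%), 13 higher (0.102%) and 6 lower (0.0468%). It differed from WT in 104 (0.812%), 43 higher (0.336%) and 61 lower (0.476%), and from COM in 4 (0.0312%), 1 higher (0.00781%) and 3 lower (0.0234%). At an unadjusted p under 0.05 these counts were 2087, 2612 and 1407. Of the genes called against Control, 8 were also called in KO against DSS, which is 1.16% of the former and 42.1% of the latter, and all such comparisons share the KO libraries. For WT the number was 17 (2.46% and 16.3%) and for COM 3 (0.434% and 75%). These counts were fragile. Against DSS no gene was called without DSS 1 or without DSS 3, 5 without DSS 2 or KO 4 and 8 without KO 2, and none without DSS 1, DSS 3 and KO 3, the libraries rich in pancreatic acinar genes (list means 10.8, 8.26 and 9.18). Against WT none was called without WT 2, WT 3 or KO 4, 1 without KO 3, 7 without KO 2 and 8 without WT 1, and against COM none without KO 2, KO 4 or COM 2. At an unadjusted p under 0.05 the fits with none called held 1324 to 1660 genes against DSS, 1935 to 2353 against WT and 839 to 1379 against COM.

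Banp, a nuclear protein that binds unmethylated CGCG sites (chr8:121947972-122029260), was called lower in KO against each of the other 4 groups. It lay at 12.2, 13 and 13.6 FPKM in Control, at 5.53, 4.52, 4.28 and 4.72 FPKM in KO, at 9.27, 8.48 and 11.5 FPKM in DSS, at 7.53, 8.9, 8.08 and 8.03 FPKM in WT and at 7.78, 10.2, 8.66 and 11.8 FPKM in COM. The highest KO library was below the lowest library of each other group. The change was -1.28 ± 0.12 (adjusted p = 0.00018) against Control, -0.89 ± 0.12 (adjusted p = 0.0068) against DSS, -0.67 ± 0.11 (adjusted p = 0.028) against WT and -0.87 ± 0.11 (adjusted p = 0.011) against COM. Ints8, a subunit of the Integrator complex (chr4:11199158-11254265), had 13.4, 13.1 and 12.8 FPKM in Control, 8.63, 9.79, 10.9 and 10.1 FPKM in KO and means of 13 ± 0.346 FPKM in DSS, 12 ± 0.769 in WT and 13.2 ± 0.783 in COM. Its change in KO was -0.38 ± 0.07 (adjusted p = 0.0061) against Control, -0.37 ± 0.07 (adjusted p = 0.045) against DSS and -0.40 ± 0.06 (adjusted p = 0.048) against COM, and -0.26 ± 0.06 (adjusted p = 0.058) against WT did not pass. Both genes were called against Control with each of the 7 libraries left out. The call of Banp against DSS was lost without DSS 1 or DSS 3 (adjusted p 0.061 to 0.063), against WT without WT 1, WT 2, WT 3, KO 2, KO 3 or KO 4 (adjusted p 0.059 to 0.13) and against COM without KO 2, KO 4 or COM 2 (adjusted p 0.057 to 0.071). That of Ints8 was lost against DSS without DSS 1, DSS 2, DSS 3, KO 1, KO 2 or KO 4 (adjusted p 0.073 to 0.20) and against COM without KO 1, KO 2, KO 4, COM 1, COM 2, COM 3 or COM 4 (adjusted p 0.10 to 0.30).

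H1f0, a linker histone gene, was higher in KO than in Control, DSS and WT, at 114, 102 and 119 FPKM in Control and 188, 141, 147 and 165 FPKM in KO. Its changes were 0.51 ± 0.10 (adjusted p = 0.012) against Control, 0.73 ± 0.10 (adjusted p = 0.011) against DSS and 0.72 ± 0.10 (adjusted p = 0.020) against WT. Against COM its 0.36 ± 0.10 (adjusted p = 0.21) did not pass. Ccdc116, a coiled-coil gene, had 3.86, 4.94 and 4.5 FPKM in Control and 8.81, 9.78, 7.47 and 9.57 FPKM in KO, with 0.87 ± 0.10 (adjusted p = 0.00088) and, against DSS, 0.75 ± 0.10 (adjusted p = 0.0068). For Ccdc116, 0.31 ± 0.09 against WT (adjusted p = 0.098) and 0.16 ± 0.09 against COM (adjusted p = 0.55) did not pass. H1f0 and Ccdc116 were apart from Control in each library. Rbm3, a cold-inducible RNA-binding protein gene, rose by 0.45 ± 0.12 (adjusted p = 0.034), a call lost without Control 2, Control 3, KO 1, KO 2, KO 3 or KO 4 (adjusted p 0.061 to 0.10), and was above DSS by 0.67 ± 0.12 (adjusted p = 0.042). For Rbm3, 0.27 ± 0.11 against WT (adjusted p = 0.17) and -0.02 ± 0.11 against COM (adjusted p = 0.97) did not pass. P4ha1, a prolyl hydroxylase that modifies collagen, changed by -0.35 ± 0.09 (adjusted p = 0.037), a call lost without Control 2, KO 1, KO 2, KO 3 or KO 4 (adjusted p 0.055 to 0.13), and its difference was -0.49 ± 0.09 (adjusted p = 0.044) from DSS and -0.53 ± 0.08 (adjusted p = 0.023) from WT. From COM its difference of -0.19 ± 0.08 (adjusted p = 0.41) did not pass. Against DSS the call of H1f0 was lost without DSS 1, DSS 2 or DSS 3 (adjusted p 0.050 to 0.085), that of Ccdc116 without DSS 1 or DSS 3 (adjusted p 0.050 to 0.067), that of Rbm3 without DSS 1, DSS 3, KO 1, KO 2, KO 3 or KO 4 (adjusted p 0.054 to 0.20) and that of P4ha1 without DSS 1, DSS 2, DSS 3, KO 2, KO 3 or KO 4 (adjusted p 0.082 to 0.19). Against WT the call of H1f0 was lost without WT 2, WT 3 or KO 4 (adjusted p 0.058 to 0.089) and that of P4ha1 without WT 2, WT 3, KO 2, KO 3 or KO 4 (adjusted p 0.061 to 0.11). Zbtb16, a zinc finger transcription factor gene, lay at 3.35, 3.12 and 2.47 FPKM in Control and 1.48, 0.48, 1.4 and 0.93 FPKM in KO, a change of -0.96 ± 0.17 (adjusted p = 0.0050) that was called with each library left out. It was at 3.35, 2.95 and 2.76 FPKM in DSS, 3.17, 2.04, 3.16 and 3.23 FPKM in WT and 0.95, 1.43, 0.97 and 1.31 FPKM in COM. It differed by -0.98 ± 0.17 (adjusted p = 0.042) from DSS and -0.93 ± 0.15 (adjusted p = 0.028) from WT, calls lost without DSS 1, DSS 2, DSS 3, KO 2 or KO 4 (adjusted p 0.057 to 0.19) and without WT 1, WT 2, WT 3, KO 2, KO 3 or KO 4 (adjusted p 0.053 to 0.095). Zfp414, another zinc finger gene, lay at 10.2, 11.4 and 12 FPKM in Control, 14.1, 14.2, 13.4 and 13.8 FPKM in KO and 8.82, 9.41, 10.1 and 11.5 FPKM in COM, with KO above both. It had 0.29 ± 0.07 (adjusted p = 0.029) against Control and 0.45 ± 0.07 (adjusted p = 0.031) against COM. The first call was lost without Control 1, Control 2, KO 1, KO 2 or KO 4 (adjusted p 0.050 to 0.081) and the second without KO 1, KO 2, KO 3, KO 4, COM 1, COM 2 or COM 3 (adjusted p 0.064 to 0.17). Of 15 heat shock and cold-inducible genes, 2 besides Rbm3 were called, both lower, beside 1.54% of all tested genes: Chordc1 and Hspa8, chaperone genes, with -0.66 ± 0.17 (adjusted p = 0.034) and -0.42 ± 0.12 (adjusted p = 0.049). The call of Chordc1 was lost without Control 2, Control 3, KO 1 or KO 3 (adjusted p 0.066 to 0.11, and a change of -0.43 without Control 3) and that of Hspa8 without Control 2, Control 3, KO 1, KO 2, KO 3 or KO 4 (adjusted p 0.074 to 0.13).

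Across the table, 52 gene lists were counted, of which 33 had at least 1 called member and 19 had none. Control 3, low in Hox and B cell genes, decided more calls than any other library among the 30 genes named by size: 10 were lost without it, 8 without KO 1, 7 without KO 3, 5 without KO 4, 4 without Control 2, 4 without KO 2 and 0 without Control 1. Over all 692 calls the order differed: the fewest, 253, were also called without KO 1, then 351 without Control 3 and 379 without Control 2. With Control 3 and KO 2 both left out, 642 genes were called and 9 of the 30 were lost, and with KO 3 left out as well 280 were called and 12 of the 30 were lost. That last fit also lost Ces2a, Clca3a1, Cldn5, Cndp2, Hsd17b2, Lum, Mcpt1, Mmp2 and Mmp10, which no single library decided. It called 10 endothelial, 2 fibroblast and collagen and 2 Clca genes higher and 0 xenobiotic genes lower. The core clock list kept 2 calls upward and 4 downward.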

How the data were processed

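The authors deposited 1 table of FPKM per gene for 18 libraries, sequenced from colon RNA on DNBSEQ per the labels. Its build is mm10, per the submitters' processing notes; the aligner, counter and annotation used are not given in the sources at hand, and read numbers are unknown, so no interval for counting error can be given. Of 18349 gene IDs, 18230 matched a RefSeq symbol and 119 did not. No columns were left unmapped.

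Values were taken as log2(FPKM + 1), which understates the change of low genes, for the 12807 genes at 1 FPKM or more in at least 3 of the 7 KO and Control libraries. Of these, 327 had a Control mean below 1 FPKM and 148 a KO mean below 1 FPKM. The libraries of either group alone could meet that limit. In lists of low genes, members high in KO could thus be tested while others were not. The test was limma 3.58.1 in R 4.3.3 with 5 groups over all 18 libraries, a mean-variance trend and Benjamini-Hochberg adjustment over the 12807 genes, with calls under 0.05. For a single gene, 3 against 4 libraries could reach an exact two-sided permutation p of 0.057 at best. No 2 libraries shared more than 0.383% of values above 5 FPKM.

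In simulated data 90% of genes changed by 2-fold and 72% of those changed by 1.5-fold were called, and 4.1% of calls were unchanged genes. The 200 changed genes were drawn from those at about 5 FPKM or more. The noise was normal, independent between genes and equal in all groups, with no library that stood apart. The real libraries differ from this, so these shares cannot be carried over to the 692 calls. Same-numbered Control and KO libraries had correlations of deviations of -0.351 to 0.435 over 3 pairs, so numbers were not taken as pairs. Named genes were the 15 most changed in each direction among called genes at 5 FPKM or more whose groups did not overlap, up to 5 members of each list described (called members first), genes called against Control and another group, and any purine or histidine gene. Hoxb13, Cela2a, the granule genes, Jchain, Npas2, Ephx1, Zbtb16, Zfp414 and the remaining clock genes were chosen after their values were seen. A few genes that the rule names are not reported here. The gene set, lists and tests were chosen with earlier results of these data known. Positions and promoter sequences are from RefSeq on GRCm38.p6, which is mm10; windows with over 30 bases in an annotated exon of their gene were not printed. Alternatives were the pseudocount, filter, scaling, model, array weights, and leaving out libraries; removal of a length and GC trend, and leaving out Control 3, KO 2 and KO 3 together, were chosen after seeing the data.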

Additional observations from a re-analysis of the deposited data

Results flagged for a closer look

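Within the 4 KO libraries, KO 2 lay apart from the others in Capg, where its gap to the nearest library was 0.872 of the group's range on the log2(FPKM + 1) scale, and in the mean of the antimicrobial list, where that ratio was 0.888. The limit for 4 samples is 0.829, 66 groups were examined, and chance alone passes it in about 1 of 20 groups.

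Of the genes called against Control, KO also differed from DSS in 8, from WT in 17 and from COM in 3, by limma's test of the difference. Values are given for the 8, for those of them also called against WT, and for the 3. Against DSS the log2 differences were 2.42 for Dbp, -0.89 for Banp, 0.75 for Ccdc116, 0.73 for H1f0, 0.67 for Rbm3, -0.37 for Ints8, -0.49 for P4ha1 and -0.98 for Zbtb16. Against WT they were 1.65 for Dbp, -0.67 for Banp, 0.72 for H1f0, -0.53 for P4ha1 and -0.93 for Zbtb16, and against COM -0.87 for Banp, -0.40 for Ints8 and 0.45 for Zfp414. Each call against DSS was lost without DSS 1 (adjusted p 0.063 to 0.20).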

How the results depend on the processing

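The 692 genes called in KO against Control (495 higher, 197 lower) became 2 (1 and 1) in a fit to the 7 libraries alone, 72 (63 and 9) with a log2 fold change of at least 1 required, 2320 (1318 and 1002) with array weights, and 280 (180 and 100) without Control 3, KO 2 and KO 3. With a minimum of 5 FPKM 313 were higher, after quantile normalization 327 were higher and 243 lower, as TPM 583 and 127, and after removal of the length and GC trend 473 and 318. With 1 library left out there were 257 to 1592 (185 to 1065 higher, 72 to 527 lower). With the replicate number as a block there were 374 (266 and 108) against Control, 6 against DSS, 1 against WT and 0 against COM, and with 1265 genes at an unadjusted p under 0.05 in the latter; 1 of 3 KO libraries correlated best with its own number in Control.

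KO against DSS gave 19 genes, 55 with a minimum of 5 FPKM, 12 in a fit to these groups alone, 1 with the fold required, 989 with array weights, 0 to 19 with 1 library left out and 0 without the acinar-rich libraries. KO against WT gave 104, 51 without a filter, 160 with 5 FPKM, 188 after quantile normalization, 506 in a fit to these groups alone, 1 with the fold required, 1677 with array weights and 0 to 146 with 1 library left out. KO against COM gave 4, 2 after quantile normalization, 1 in a fit to these groups alone, 0 with the fold required, 7 with array weights, 0 to 2 with 1 library left out and 1 after removal of the length and GC trend. The cause of these moves was not tested.

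Of 2520 values of 134 named genes under an alternative, 2024 kept their direction and side of the threshold, 423 lost the call, 72 gained it, and 1 turned: Hars, a histidine tRNA synthetase gene at 0.14 and not called, was at -0.0057 without Control 3 and KO 2. Read depth is unknown, so its part in low genes could not be assessed.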

Other observations

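The inducible heat shock genes were highest in Control 3. Hspa1a lay at 8.91, 18.5 and 80.7 FPKM in Control and at 6.95, 8.96, 11.1 and 10.3 FPKM in KO, and Hspa1b at 17.4, 35.4 and 129 FPKM and 14.2, 20.3, 19.9 and 19.3 FPKM. Control 2 and Control 3 were above the KO range in both genes, and neither was called, with -1.30 ± 0.47 (adjusted p = 0.12) and -1.20 ± 0.43 (adjusted p = 0.12) in limma. Without Control 3 the changes were -0.45 and -0.43, and without Control 1 both were called, at -1.97 (adjusted p = 0.0093) and -1.83 (adjusted p = 0.0069). Squamous epithelial genes had a list mean of 2.16 in KO 3 and of 1.06 to 1.36 in the other 6 libraries on the log2(FPKM + 1) scale.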
